A study of Mus musculus with 6 samples.

Results

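The genes described here are 48 genes of DNA replication and S phase, chosen by name: the origin licensing proteins, the replication fork, nucleotide synthesis, chromatin copying and the regulators of the G1/S transition. The list was chosen with earlier results of these data known, so the counts below describe it and do not test it. They were looked up by symbol among the 52550 genes listed in each of 6 RNA-seq profiles of mouse colon epithelium. All 48 were found, and all 48 passed the filter on low values, which kept genes with at least 1 FPKM (fragment counts scaled to transcript length and to the mapped total of the library) in at least 3 samples. The filter kept 11564 genes in all.

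Samples 1 to 3 of the control group came from Zfp90fl/fl mice, which carry floxed *Zfp90* alleles and no deletion. Samples 1 to 3 of the other group came from Zfp90deltaIEC mice, in which Villin-cre, a recombinase driven by an intestinal epithelial promoter, deletes the floxed segment of the zinc finger gene *Zfp90*. All were male C57BL/6 mice, 6 to 8 weeks old by the labels, and both groups received azoxymethane (AOM, a colon carcinogen) at 10 mg/kg and, from 5 days later, 3 cycles of 2% dextran sulfate sodium (DSS, which injures the colon lining) in water for 7 days with 14 days of plain water, up to day 80. Age and DSS concentration are those of the labels, and the study's methods give a different DSS concentration and a single age. Untreated mice were not analysed here, so every value below is from AOM-DSS-treated colon. The mice were housed by genotype, and cage and genotype therefore cannot be told apart. Epithelium was released from the colon with EDTA and DTT, and how evenly this recovers crypt and surface cells was not tested.

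*Zfp90* lay between 0.490 and 0.630 FPKM in the Zfp90fl/fl samples and between 0.0846 and 0.195 FPKM in the Zfp90deltaIEC samples, without overlap. An epithelial marker was high, and stromal and endothelial markers were low. The keratin gene *Krt8* lay between 2635 and 3071 FPKM, and 12 stromal and endothelial genes together summed to between 0.627 and 1.32 FPKM per sample. A list of 18 leukocyte genes summed to between 26.2 and 56.6 FPKM per sample, most of it from *Ly6g*. The depth per sample is not given by the FPKM files, and reading the smallest increments among low levels put it at 27.7 to 30.7 M fragments.

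Before S phase, the origin recognition complex, Cdc6 and Cdt1 load the ring of MCM proteins onto DNA in an inactive form. In S phase, Cdc45 and GINS join the ring to make the active helicase, primase and the polymerases copy the strands, the PCNA clamp and its RFC loader hold the polymerases on DNA, and nucleotide synthesis and chromatin assembly keep pace. E2F factors drive many of these genes at the G1/S transition, and in the colon the cells that pass through it lie in the lower part of the crypt.

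Across the 48 genes, 46 had a higher mean log2 level in the Zfp90deltaIEC samples, where 42.8% of all genes tested did. The difference was small. The ratio of mean FPKM, Zfp90deltaIEC over Zfp90fl/fl, had a median of 1.22 and ranged from 0.950 for *E2f2* to 1.48 for *Mcm3*. On the log2(FPKM + 1) scale, which understates the change of genes at low levels, the median difference between the genotypes was 0.22, against -0.02 over all genes tested. In these bulk samples, more cells in S phase and more of these transcripts per cell cannot be told apart.

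No single gene of the 48 passed the test. With limma over all 11564 genes, 0 of the 48 had a Benjamini-Hochberg adjusted p under 0.05 (the lowest was 0.0995, for *Uhrf1*), while 8 genes of the transcriptome were called higher, which is 0.0692% of those tested. At an unadjusted p under 0.05, 29 of the 48 were higher in the Zfp90deltaIEC samples, or 60.4%, against 6.56% of all genes tested, and 0 were lower. For 30 of the 48 (62.5%) the 3 Zfp90deltaIEC values all lay above the 3 Zfp90fl/fl values, against 8.73% of all genes tested. None of the 48 separated in the other direction, against 12.6% of all genes tested, and 18 overlapped. The 48 genes varied together across the 6 samples, so these counts are not 48 independent results. The correlation of a gene with the median of the other members was over 0.5 for 42 genes, with a median of 0.90. It includes the difference between the genotypes.

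Zfp90deltaIEC replicate 2 and Zfp90fl/fl replicate 2 bounded these groups. The former had the highest value of the 6 samples in 30 of the 48 genes, and the latter had the lowest in 29. The median deviation of the 48 genes from their own 6-sample mean was -0.05, -0.17 and -0.12 on the log2 scale in Zfp90fl/fl replicates 1, 2 and 3. It was 0.09, 0.19 and 0.08 in Zfp90deltaIEC replicates 1, 2 and 3, so the groups did not overlap. The same median over all genes tested stayed between -0.02 and 0.02. Leaving out Zfp90deltaIEC replicate 2 left 17 of the 48 genes at an unadjusted p under 0.05 and higher, where 5.27% of all genes tested were. Leaving out Zfp90fl/fl replicate 2 left 18, where 5.56% of all genes tested were. The median difference over the 48 genes was 0.20 in each of those fits.

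**Figure D1:**
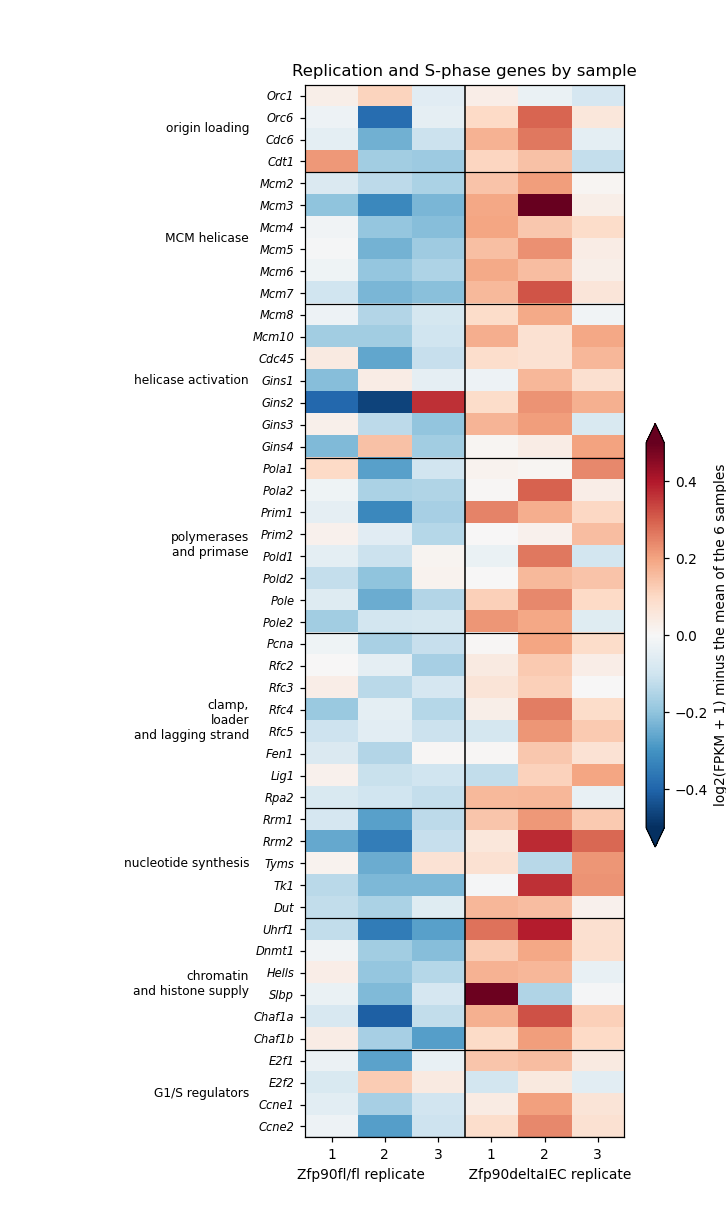
Each row is a gene and each column a sample; colour shows log2(FPKM + 1) minus the gene's mean over the 6 samples, and the arrow ends of the scale mark values beyond 0.5 in either direction, such as *Mcm3* in Zfp90deltaIEC replicate 2. The 3 columns at the right are mostly red and those at the left mostly blue, with *Orc1* and *E2f2* as the rows that run the other way.

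The sums of FPKM over the 48 genes were 299.8, 273.7 and 286.9 in Zfp90fl/fl replicates 1, 2 and 3 and 340.5, 368.7 and 336.2 in Zfp90deltaIEC replicates 1, 2 and 3. The order of the genes by level was nearly the same in both genotypes (Spearman's rho 0.983 between the genotype means, across 48 genes that are not independent replicates). Mean levels were low to moderate. Over all 6 samples, 5 genes had a mean under 2 FPKM, 32 lay between 2 and 10 FPKM, and 11 had at least 10 FPKM.

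In origin loading, 2 of 4 genes separated, and the median difference was 0.18 on the log2 scale, or 0.11 without Zfp90fl/fl replicate 2. *Orc6*, a subunit of the origin recognition complex, was measured at 4.31, 3.16 and 4.25 FPKM in the 3 Zfp90fl/fl samples and 4.80, 5.62 and 4.63 FPKM in the 3 Zfp90deltaIEC samples, by replicate number here and in what follows. Its genotypes did not overlap (log2 difference 0.30, SE 0.115, adjusted p = 0.309), and the difference was 0.18 without Zfp90fl/fl replicate 2. *Cdc6*, the loading ATPase, read 1.70, 1.36 and 1.59 FPKM against 2.15, 2.35 and 1.70 FPKM. The lowest Zfp90deltaIEC value stood just above the highest control value (log2 difference 0.26, SE 0.103, adjusted p = 0.313).

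*Orc1*, the large ATPase subunit of the same complex, read 3.85, 4.12 and 3.57 FPKM in Zfp90fl/fl and 3.87, 3.64 and 3.48 FPKM in Zfp90deltaIEC. The values interleaved, and the log2 difference was -0.06 (SE 0.0697, adjusted p = 0.760), so the subunits *Orc1* and *Orc6* did not share a direction. *Cdt1*, which brings MCM to the origin, overlapped too, with a log2 difference of 0.09 and a ratio of 1.08.

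All 6 genes of the MCM helicase ring separated without overlap, with a median difference of 0.28 and a ratio of 1.27 between the mean sums (59.3 ± 3.88 FPKM in Zfp90fl/fl and 75.6 ± 6.12 FPKM in Zfp90deltaIEC, SD, n = 3). *Mcm3* was measured at 8.69, 7.90 and 8.50 FPKM in Zfp90fl/fl and at 11.7, 15.1 and 10.4 FPKM in Zfp90deltaIEC. The Zfp90deltaIEC samples all stood above the controls but were spread widely, with replicate 2 far above the other two (log2 difference 0.50, SE 0.125, adjusted p = 0.142). *Mcm7* read 11.5, 10.4 and 10.5 FPKM against 13.9, 15.6 and 12.9 FPKM. Here too replicate 2 of Zfp90deltaIEC was the highest (log2 difference 0.36, SE 0.0805, adjusted p = 0.127).

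*Mcm4* read 11.2, 9.81 and 9.64 FPKM in Zfp90fl/fl and 13.2, 12.6 and 12.2 FPKM in Zfp90deltaIEC. The values within each genotype lay close together, and replicate 1 led both (log2 difference 0.28, SE 0.0717, adjusted p = 0.146). *Mcm5* read 11.4, 9.57 and 10.0 FPKM against 12.8, 13.6 and 11.8 FPKM. The gap between the genotypes was narrow, from 11.4 to 11.8 FPKM (log2 difference 0.28, SE 0.0833, adjusted p = 0.206).

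*Mcm6*, the member of the ring with the highest level, read 16.0, 14.1 and 14.5 FPKM in Zfp90fl/fl and 18.7, 18.2 and 16.6 FPKM in Zfp90deltaIEC. *Mcm2*, the lowest, read 4.97, 4.72 and 4.61 FPKM against 5.93, 6.26 and 5.30 FPKM. Neither overlapped, and their log2 differences of 0.25 and 0.24 (SE 0.0728 and 0.0712, adjusted p = 0.202 and 0.205) were near each other. The *Mcm6* to *Mcm2* ratio of FPKM lay between 2.91 and 3.22 in the 6 samples, with a mean of 3.11 in Zfp90fl/fl and 3.06 in Zfp90deltaIEC, and their products form a ring with equal numbers of each.

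**Figure D2:**
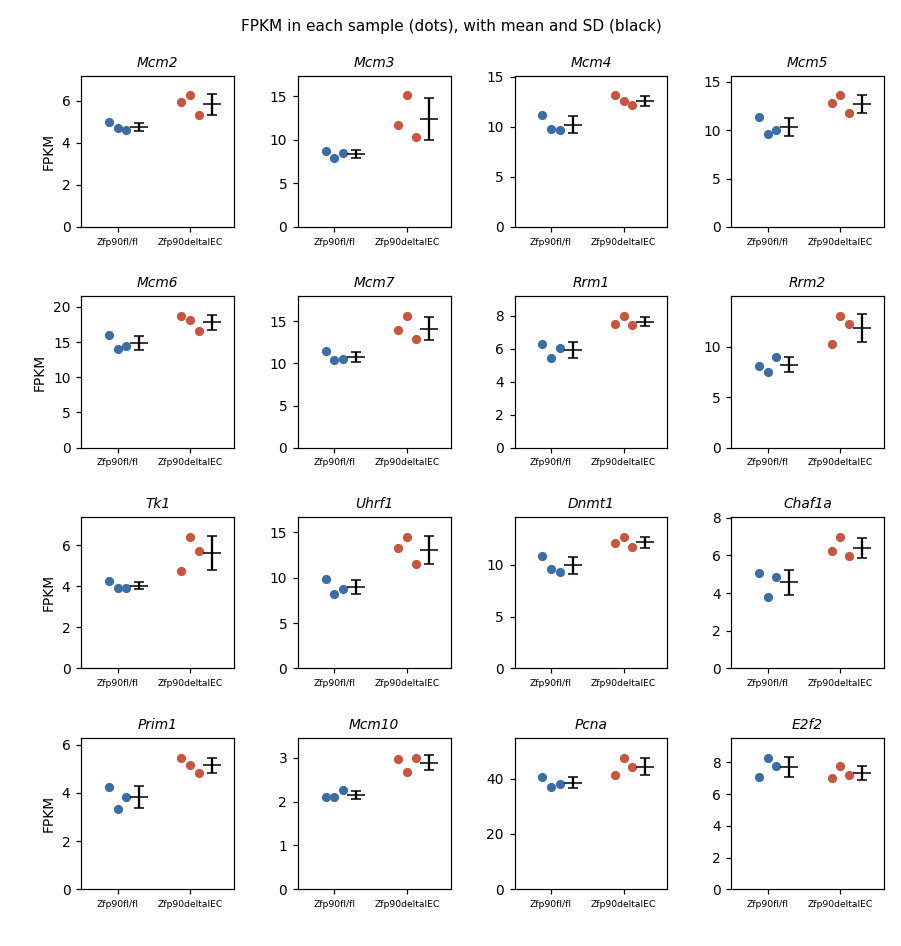
Each panel shows a gene's FPKM on a linear axis from 0, with dots for the 3 samples of each genotype and the mean with its SD beside them. In the 15 panels from *Mcm2* to *Pcna* every Zfp90deltaIEC dot lies above every Zfp90fl/fl dot, and in the panel of *E2f2* the dots interleave. The panels are a selection weighted to separated genes: over all 48 genes, 30 separated and 18 overlapped.

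Because the MCM genes lay together above the controls, the letters of their promoters are shown. RefSeq promoter windows of 300 bases, 250 before and 50 after a start site, were at hand for 40 of the 48 genes on the mouse build GRCm38.p6. The E2F site was searched as TTTCCCGC, TTTCGCGC, TTTGCCGC or TTTGGCGC on both strands. Of the 5 MCM genes with a window (all but *Mcm4*), 4 held such a match and 5 held the letters CCAAT on either strand, the site of the factor NF-Y. The 160 bases just before the *Mcm6* start, at chr1:128359706-128359865 on the minus strand, held 3 E2F matches, of which the upstream pair overlap each other, and 2 CCAAT boxes read on the other strand, all in capitals (5′ to 3′):
Mcm6: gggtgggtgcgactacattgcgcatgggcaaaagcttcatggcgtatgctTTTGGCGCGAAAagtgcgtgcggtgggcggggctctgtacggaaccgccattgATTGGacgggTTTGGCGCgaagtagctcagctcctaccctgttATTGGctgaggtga

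Windows of 30 bases around an E2F match are given for 5 more genes whose values are listed by sample, to show the same letters in another gene of the ring, in the origin loading genes *Cdc6* and *Orc1*, and in the chromatin genes *Uhrf1* and *Dnmt1* (match in capitals, 5′ to 3′ on the gene's strand). They lie at chr5:138172030-138172059 (minus strand) for *Mcm7*, chr11:98908002-98908031 (plus) for *Cdc6*, chr4:108579416-108579445 (plus) for *Orc1*, chr17:56304117-56304146 (plus) for *Uhrf1* and chr9:20952824-20952853 (minus) for *Dnmt1*:
Mcm7: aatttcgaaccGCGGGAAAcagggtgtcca
Cdc6: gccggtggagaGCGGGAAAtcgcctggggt
Orc1: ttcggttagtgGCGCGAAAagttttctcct
Uhrf1: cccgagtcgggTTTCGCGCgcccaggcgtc
Dnmt1: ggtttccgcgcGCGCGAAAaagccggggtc
*Orc1*, whose genotypes overlapped, and *Dnmt1*, whose genotypes did not, hold the same 8 letters.

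A group of 7 genes held the factors that turn the loaded ring into a running helicase, and *Mcm8*. Of these 7, 3 separated, *Mcm8* among them, and the median difference was 0.20. *Mcm10*, which binds the ring as it is activated, read 2.10, 2.11 and 2.26 FPKM in Zfp90fl/fl and 2.97, 2.69 and 3.001 FPKM in Zfp90deltaIEC. The controls were nearly equal and the gap was wide for this list (log2 difference 0.30, SE 0.0664, adjusted p = 0.124). *Cdc45*, a part of the active helicase, read 5.21, 4.02 and 4.55 FPKM against 5.39, 5.35 and 5.75 FPKM. The highest control value lay just below the lowest Zfp90deltaIEC value (log2 difference 0.22, SE 0.0873, adjusted p = 0.318), and the difference was 0.15 without Zfp90fl/fl replicate 2.

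The GINS complex, the other part of the active helicase, did not separate in any of its 4 subunits. *Gins4* read 8.51, 11.3 and 8.82 FPKM in Zfp90fl/fl and 10.2, 10.4 and 11.7 FPKM in Zfp90deltaIEC. Its second-highest value was a control, and the log2 difference was 0.17 (SE 0.110, adjusted p = 0.545). *Gins2* had a log2 difference of 0.33, but its SE of 0.210 was the largest of the 48, with control replicate 3 at 6.00 FPKM and the other controls at 3.14 and 2.95 FPKM. *Gins1* and *Gins3* had log2 differences of 0.15 and 0.20. The subunits were also far apart in level, with *Gins4* between 5.76 and 9.30 times *Gins3* in the 6 samples. *Mcm8*, a relative of the ring proteins that works in recombination repair, separated with a log2 difference of 0.17 (adjusted p = 0.387).

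Of the 8 polymerase and primase genes, 4 separated, with a median difference of 0.21. *Prim1*, the catalytic subunit of primase, read 4.26, 3.34 and 3.84 FPKM in Zfp90fl/fl and 5.45, 5.15 and 4.84 FPKM in Zfp90deltaIEC. Its genotypes stood apart (log2 difference 0.36, SE 0.0860, adjusted p = 0.134), whereas *Prim2*, the other primase subunit, overlapped with a log2 difference of 0.12. *Pole*, the catalytic subunit of the leading-strand polymerase, was lower in level, at 1.59, 1.29 and 1.45 FPKM against 1.95, 2.20 and 1.91 FPKM. Its genotypes did not overlap (log2 difference 0.31, SE 0.0803, adjusted p = 0.159), and its ratio of mean FPKM was 1.40.

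*Pole2*, the second subunit of that polymerase, read 2.23, 2.42 and 2.43 FPKM against 3.24, 3.16 and 2.49 FPKM. The third Zfp90deltaIEC value lay next to the controls (log2 difference 0.23, SE 0.0909, adjusted p = 0.313). *Pola2*, a subunit of the polymerase that works with primase, read 7.44, 6.68 and 6.72 FPKM against 7.61, 9.52 and 7.76 FPKM. Replicate 2 of Zfp90deltaIEC was far above the rest, and the log2 difference was 0.22 (SE 0.0922, adjusted p = 0.333), or 0.13 without that sample. Its catalytic partner *Pola1* overlapped, with a log2 difference of 0.18.

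*Pold2*, the second subunit of the lagging-strand polymerase, had the highest level of the polymerase genes, at 10.3, 9.65 and 11.4 FPKM in Zfp90fl/fl and 11.3, 12.7 and 12.5 FPKM in Zfp90deltaIEC. The groups overlapped by replicate 3 of the controls and replicate 1 of Zfp90deltaIEC (log2 difference 0.20, SE 0.0785, adjusted p = 0.313). *Pold1*, the catalytic subunit, had a log2 difference of 0.09 and overlapped, and without Zfp90deltaIEC replicate 2 its difference was -0.02.

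The clamp, its loader and the lagging-strand enzymes had a median difference of 0.16, with 4 of 8 genes separated. *Pcna*, the sliding clamp, had the highest level of all 48 genes, at 40.7, 36.8 and 38.1 FPKM in Zfp90fl/fl and 41.5, 47.6 and 44.1 FPKM in Zfp90deltaIEC. The gap between replicate 1 of each genotype was under 1 FPKM (log2 difference 0.20, SE 0.0706, adjusted p = 0.275). By staining, the study reported a lower share of PCNA-positive tumour cells in Zfp90deltaIEC mice, and fewer tumours. That is protein in tumour tissue, whereas these values are RNA of colon epithelium. The tumour content of the samples was not given in the sources used here. *Rfc4*, a small subunit of the loader, read 6.51, 7.27 and 6.73 FPKM against 7.71, 9.21 and 8.11 FPKM. It separated (log2 difference 0.25, SE 0.0782, adjusted p = 0.222), and so did *Rfc2* with a log2 difference of 0.14, whereas *Rfc3* and *Rfc5* overlapped at 0.12 and 0.18.

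*Rpa2*, a subunit of the single-strand binding protein, read 3.96, 3.88 and 3.82 FPKM in Zfp90fl/fl and 4.86, 4.88 and 4.09 FPKM in Zfp90deltaIEC. The controls were tight and replicate 3 of Zfp90deltaIEC lay close above them (log2 difference 0.20, SE 0.0741, adjusted p = 0.305). *Lig1*, the ligase that joins lagging-strand fragments, read 9.71, 8.78 and 8.86 FPKM against 8.70, 10.4 and 11.1 FPKM. Its lowest value belonged to Zfp90deltaIEC (log2 difference 0.13, SE 0.0929, adjusted p = 0.584). *Fen1*, the flap nuclease acting before it, overlapped with a log2 difference of 0.14.

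Nucleotide synthesis had a median difference of 0.32, with 4 of 5 genes separated and a ratio of 1.30 between the mean sums. *Rrm1* and *Rrm2* encode the subunits of ribonucleotide reductase, which makes deoxynucleotides. *Rrm2*, the subunit whose supply follows S phase, read 8.08, 7.52 and 9.01 FPKM in Zfp90fl/fl and 10.3, 13.0 and 12.2 FPKM in Zfp90deltaIEC. All 3 Zfp90deltaIEC values stood above 10 FPKM and all controls below it (log2 difference 0.48, SE 0.101, adjusted p = 0.116). *Rrm1* read 6.30, 5.41 and 6.06 FPKM against 7.51, 7.97 and 7.45 FPKM. It separated as well (log2 difference 0.32, SE 0.0689, adjusted p = 0.117). The *Rrm2* to *Rrm1* ratio lay between 1.28 and 1.49 in Zfp90fl/fl and between 1.37 and 1.64 in Zfp90deltaIEC, so the ratios overlapped.

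*Tk1*, the thymidine kinase of cycling cells, read 4.24, 3.93 and 3.92 FPKM in Zfp90fl/fl and 4.73, 6.40 and 5.72 FPKM in Zfp90deltaIEC. The spread was wider in Zfp90deltaIEC (log2 difference 0.39, SE 0.0993, adjusted p = 0.149). *Dut*, which removes dUTP, read 6.18, 6.00 and 6.50 FPKM against 7.78, 7.69 and 6.93 FPKM. The genotypes did not overlap (log2 difference 0.23, SE 0.0653, adjusted p = 0.195). *Tyms*, thymidylate synthase, was the exception, with a log2 difference of 0.11 and overlapping genotypes.

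Of the 6 genes of chromatin copying and histone supply, 4 separated, with a median difference of 0.27 and a ratio of 1.31 between the mean sums. *Uhrf1*, which reads hemimethylated DNA behind the fork, was measured at 9.81, 8.25 and 8.78 FPKM in Zfp90fl/fl and at 13.3, 14.5 and 11.5 FPKM in Zfp90deltaIEC. The genotypes were well apart, and it had the lowest adjusted p of the 48 (log2 difference 0.50, SE 0.0983, adjusted p = 0.0995). *Dnmt1*, the maintenance methyltransferase that *Uhrf1* protein brings to DNA, read 10.9, 9.65 and 9.36 FPKM against 12.1, 12.7 and 11.7 FPKM. It separated with a smaller difference (log2 difference 0.27, SE 0.0705, adjusted p = 0.161).

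*Chaf1a*, the large subunit of chromatin assembly factor, read 5.05, 3.82 and 4.87 FPKM in Zfp90fl/fl and 6.23, 6.98 and 5.96 FPKM in Zfp90deltaIEC. Control replicate 2 was the lowest and Zfp90deltaIEC replicate 2 the highest (log2 difference 0.41, SE 0.104, adjusted p = 0.145). *Chaf1b*, its partner, read 2.49, 2.03 and 1.81 FPKM against 2.64, 2.93 and 2.64 FPKM. Both subunits thus lay above all controls in every Zfp90deltaIEC sample (*Chaf1b* log2 difference 0.27, SE 0.0947, adjusted p = 0.271). *Hells*, a chromatin remodeller, overlapped with a log2 difference of 0.20. *Slbp*, which binds the histone mRNA stem-loop, had a log2 difference of 0.22 that rested on 9.32 FPKM in replicate 1 of Zfp90deltaIEC, the other 5 samples lying between 5.30 and 6.33 FPKM.

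Among the 4 regulators of the G1/S transition, 3 separated, with a median difference of 0.22. *E2f1*, an activating E2F factor, read 1.98, 1.52 and 1.96 FPKM in Zfp90fl/fl and 2.35, 2.38 and 2.14 FPKM in Zfp90deltaIEC. Its genotypes did not overlap (log2 difference 0.22, SE 0.0880, adjusted p = 0.313), and the difference was 0.15 without Zfp90fl/fl replicate 2. *E2f2*, a related activator, had the higher level, at 7.07, 8.29 and 7.78 FPKM against 6.99, 7.79 and 7.21 FPKM. These values interleaved, and the log2 difference of -0.06 (SE 0.0738, adjusted p = 0.736) was the lowest of the 48.

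*Ccne1* and *Ccne2* encode the E-type cyclins that activate Cdk2 at S phase entry. *Ccne1* read 2.05, 1.82 and 1.95 FPKM in Zfp90fl/fl and 2.25, 2.64 and 2.30 FPKM in Zfp90deltaIEC. *Ccne2* read 2.84, 2.23 and 2.64 FPKM against 3.16, 3.62 and 3.13 FPKM. Both separated, with log2 differences of 0.21 and 0.27 (SE 0.0746 and 0.0886, adjusted p = 0.276 and 0.246).

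**Figure D3:**
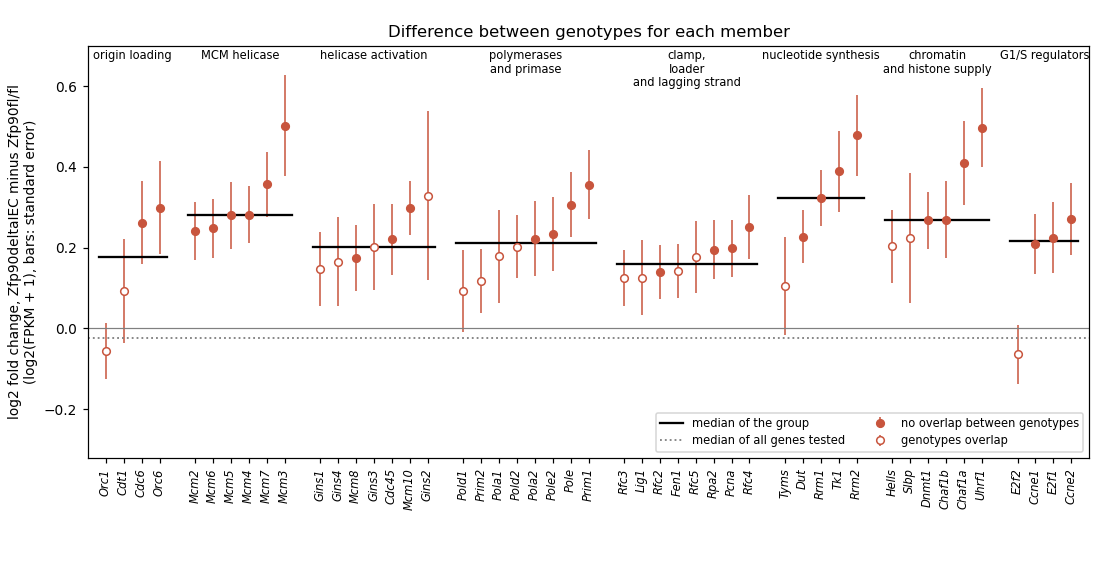
Each point is the log2 difference of a gene on the log2(FPKM + 1) scale, Zfp90deltaIEC minus Zfp90fl/fl, with its standard error, arranged by role; filled points are genes whose genotypes do not overlap, black bars are group medians, and the dotted line is the median of all genes tested (-0.02). The points of *Orc1* and *E2f2* lie below 0 and the other 46 above it.

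Reads of some of these genes may be shared with neighbours. The exons of 13 of the 48 genes overlap those of a protein-coding gene in GENCODE, for example *Chaf1a* with *Ubxn6* over 2542 bases and *Gins2* with *Gse1* over 2758 bases. The libraries were strand-specific, but the strand setting of the counting was not given in the sources used here. In a count added after the data were seen, 21 of the other 35 genes (60.0%) separated upward, against 8.73% of all genes tested. The 13 include genes whose neighbour was hardly measured, such as *Rfc2* with *Lat2* (at most 0.220 FPKM). The part of shared reads in the values was not tested. *Pcna* and *Tyms* also have processed pseudogenes that bear their names.

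A list of 49 other replication genes had a lower median difference. Of these, 48 were tested, and 0 had an adjusted p under 0.05 with limma, while 10 were higher at an unadjusted p under 0.05. The median was 0.10, and 13 separated upward (27.1%, against 8.73% of all genes tested) and 1 downward. The highest in level were *Ssrp1*, a histone chaperone subunit, at 26.5 to 28.5 FPKM in Zfp90fl/fl and 27.0 to 29.3 FPKM in Zfp90deltaIEC, and *Chtf8*, a subunit of an alternative clamp loader, at 21.4 to 24.4 and 20.2 to 23.0 FPKM. Both overlapped.

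Other genes of the G1/S transition numbered 26, of which 23 were tested and 0 passed with limma, with 4 higher at an unadjusted p under 0.05. Of those tested, 5 separated upward (21.7%), against 8.73% of all genes tested. The median difference was 0.01, and single genes ran from -0.17 to 0.49. The highest in level was *Cdkn1a*, the Cdk inhibitor p21, at 73.1, 86.9 and 85.1 FPKM in Zfp90fl/fl and 78.7, 119.9 and 109.8 FPKM in Zfp90deltaIEC. It overlapped (log2 difference 0.31, SE 0.158, adjusted p = 0.424), and so did *Ccnd2*, cyclin D2, with a log2 difference of 0.14.

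The 22 G2/M genes, which work after replication, had a higher median difference than the replication genes, 0.38. Of them, 21 separated upward (95.5%, against 8.73% of all genes tested). *Mki67*, the gene of the Ki-67 proliferation antigen, was measured at 22.6, 21.8 and 22.6 FPKM in Zfp90fl/fl and at 29.1, 30.2 and 30.7 FPKM in Zfp90deltaIEC. The replicates of each genotype were close together, and *Mki67* rose by 0.41 on the log2 scale (SE 0.0512, adjusted p = 0.0478). This call lay at the threshold: it was lost in 11 of 13 alternative analyses, the 6 that each left out a sample among them, with adjusted p from 0.0438 to 0.163 and log2 differences from 0.39 to 0.44. The replication and G2/M genes were measured in the same 6 libraries, and the difference between the lists was not tested.

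Marker genes of epithelial cell types were read in the same samples. Of 9 crypt base genes tested 1 separated upward and the median difference was 0.07, with *Slc12a2* at 49.2 to 55.1 FPKM in Zfp90fl/fl and 47.0 to 74.4 FPKM in Zfp90deltaIEC. Of 12 colonocyte genes, 5 separated upward (median 0.29), and *Car1*, a carbonic anhydrase of the surface epithelium, lay at 4033 to 5628 FPKM and 6349 to 10060 FPKM. Of 8 goblet cell genes 3 separated upward (median 0.39), and 1 of 7 general epithelial genes did (median -0.04). Against 8.73% of all genes tested, the shares were 11.1% for crypt base and 14.3% for general epithelial genes, which is near it. They were 41.7% for colonocyte and 37.5% for goblet cell genes. None of these passed the test (0 with limma at an adjusted p under 0.05, and 10 upward at an unadjusted p under 0.05 over the 4 lists).

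Leukocyte genes lay on the other side of 0. Of 18, 3 passed the filter, and 1 of these 3 separated downward, against 12.6% of all genes tested. With genes below the filter counted, 11 of the 18 lay lower in every Zfp90deltaIEC sample than in any Zfp90fl/fl sample. The share of all genes below the filter that did so was not computed. *Itgam*, also below the filter, lay at 0.928 to 1.01 FPKM in Zfp90fl/fl and 0.132 to 0.180 FPKM in Zfp90deltaIEC (adjusted p = 0.0199 with limma without the filter). The summed level of the 18 genes was 35.4, 35.2 and 56.6 FPKM in Zfp90fl/fl and 29.7, 26.2 and 38.0 FPKM in Zfp90deltaIEC. Most of it came from a single gene, *Ly6g*, listed as a neutrophil marker. *Ly6g* itself overlapped between the genotypes, at 24.8, 24.0 and 44.7 FPKM in Zfp90fl/fl and 25.7, 21.9 and 32.9 FPKM in Zfp90deltaIEC (adjusted p = 0.802). The neutrophil genes *S100a8* and *S100a9*, which were below the filter and were picked after their values were seen, were listed at 0 in all 3 Zfp90deltaIEC samples and between 0.236 and 1.63 FPKM in the controls. Their adjusted p was 0.156 and 0.232 with limma without the filter. Whether the *Ly6g* values came from neutrophils was not tested. The part of these cell markers in the values of the replication genes was not tested.

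**Figure D4:**
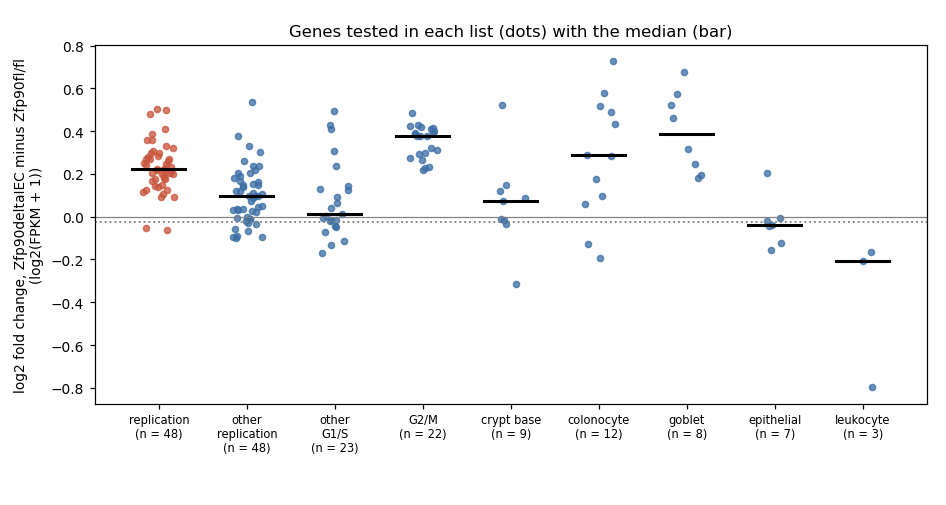
Each dot is the log2 difference (Zfp90deltaIEC minus Zfp90fl/fl, log2(FPKM + 1)) of a gene that passed the filter, by list, with the list's median as a bar and the median of all genes tested as a dotted line. The medians run from -0.21 for the 3 leukocyte genes to 0.39 for the 8 goblet genes, with 0.22 for the 48 replication genes.

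The promoter letters were also counted over whole lists, as a description. An E2F match lay in the window of 18 of 40 replication genes (45.0%), of 4.8% of the 8418 tested genes with a window, and of 2.6% of all 27025 genes in the table. CCAAT, which may share letters with an E2F match, was present in 60.0% of the replication genes and 43.3% of the tested genes. The letters TTTGAA, the CHR element of late cell cycle genes, were present in 17.5% and 14.3%. Of the 18 G2/M genes with a window, 5.6% held an E2F match, 83.3% CCAAT and 66.7% TTTGAA.

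Within the list, the letters and the differences were set side by side. The 18 genes with an E2F match had a median log2 difference of 0.20, with 9 separated upward, and the 22 without had 0.23, with 17 separated. None of the 5 nucleotide synthesis genes, whose median difference was 0.32, held an E2F match in its window, whereas 3 of the 4 origin loading genes did. *Mcm3* and *Mcm7* held 2 matches each. A window without these letters says nothing of sites elsewhere. No window was at hand for *Ccne2*, *Gins1*, *Gins2*, *Gins4*, *Mcm4*, *Pole*, *Prim2* and *Rfc2*.

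**Figure D5:**
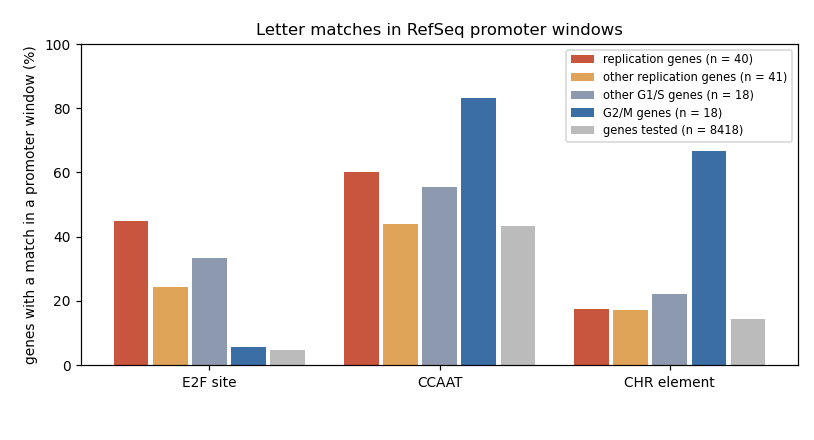
Bars give the percent of genes in each list with at least 1 match in a RefSeq promoter window, for the E2F site, CCAAT and the CHR element TTTGAA, with the number of genes in the key. The bar of the replication genes is the tallest of the 5 for the E2F site (45.0%), and that of the G2/M genes is the tallest for CCAAT and for the CHR element.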

How the data were processed

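RNA of colonic epithelium from 3 Zfp90fl/fl and 3 Zfp90deltaIEC samples was sequenced as paired reads of 150 bases. The authors deposited FPKM values per Ensembl gene for each sample. The submitters' processing notes name FastQC, STAR 2.5, Cuffnorm, DESeq 1.22.1 and the build mm9, whereas the study's methods name another aligner and genome, so the counting is uncertain. Symbols were matched for 52403 of 52550 gene IDs.

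Groups followed the sample titles, because the genotype label of 2 Zfp90deltaIEC samples carries another gene number. The labels do not state separate animals, and p-values measure the spread between these samples. With limma 3.58.1 in R 4.3.3, log2(FPKM + 1) of genes reaching 1 FPKM in 3 or more samples was fitted on genotype, two-sided, with an intensity trend and Benjamini-Hochberg adjustment over 11564 genes. On simulated data of 11564 genes, 86% of 200 genes changed by 1 on the log2 scale were recovered with 9 false calls, and 0 calls were made with no change.

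The members and lists were chosen with earlier results of these data known. Sample values are given for 33 genes: the 28 that did not overlap at an unadjusted p under 0.05, and the 2 highest of each group by mean FPKM. Genes of other lists are named where the adjusted p is under 0.05, otherwise as the 2 highest by mean FPKM. *Car1*, *Krt8*, *Slc12a2* and *Ly6g* are named as the highest of their lists. *S100a8* and *S100a9* were chosen after their values were seen, and so was *Itgam*, for its adjusted p in the fit without the filter. *Zfp90* is named as the deleted gene. Depth was estimated from steps between low FPKM values after taking 200 bases off each length. At most 63.9% of values lay within 10% of a whole step, so counts were not recovered. Coordinates are given only for promoter stretches, on GRCm38.p6, since the deposited build differs from the annotation at hand. The alternatives were another pseudocount, 2 filters, 2 scalings, no trend, the replicate block and leaving out each sample.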

Additional observations from a re-analysis of the deposited data

How the results depend on the processing

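Of the 48 replication genes, 0 passed an adjusted p of 0.05 with limma in any analysis, and the lowest adjusted p among them ran from 0.0791 to 0.263. Between 17 and 33 of those tested were higher at an unadjusted p under 0.05 (17 of 24 tested at the 5 FPKM filter) and 0 were lower. The median difference ran from 0.20 to 0.27, and 30 to 36 genes separated upward where all 48 were tested, while 5.99% to 14.5% of all genes tested did. The share of all genes was highest in fits without a sample, which compare fewer values: 36 of the 48 separated without Zfp90deltaIEC replicate 1, where it was 14.5%. Under the alternatives, 575 results of single genes kept their direction and their side of the threshold and 1 did not. *Pold1* ran from -0.0151 (adjusted p = 0.947, without Zfp90deltaIEC replicate 2) to 0.1624 with a sample left out. The G1/S regulators had a median of -0.0644 at the 5 FPKM filter, which left only *E2f2*. With a pseudocount of 0.1 their median went from 0.217 to 0.307, and that of helicase activation from 0.201 to 0.262. The MCM median was 0.303 there, so the order of the subgroups by median depended on the pseudocount. The number of genes called over the transcriptome, 23, was 13 with a pseudocount of 0.1, 15 with no filter, 13 at the 5 FPKM filter, 47 with the replicate block, and 10 to 21 with a sample left out (10 without Zfp90fl/fl replicate 2). The cause of these shifts was not tested, beyond the fewer genes tested by the stricter filter. Same-numbered samples deviated together across genes with r of 0.19, 0.11 and 0.08, and each sample correlated best with its own number, but not every pair passed 0.1, so the numbers were not taken to pair the samples. With the replicate block, 23 replication genes had an unadjusted p under 0.05 and the lowest adjusted p was 0.133. The check on simulated data covered differences of 1 on the log2 scale, larger than that of any of the 48 genes, so it does not say how often differences of their size would be called.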
